A study of Mus musculus with 8 samples.

Results

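The cells described here are granule lineage cells in G2 and mitosis, from 2 single-cell RNA libraries of mouse medulloblastoma, a tumour of the cerebellum. Both libraries came from Patched 1 deficient mice and hold medulloblastoma cells that had been dissociated with papain and sorted by flow cytometry. The sort gate is not described. One library is of a primary tumour and the other of a relapsed tumour at 3 weeks, per its title and source label, while its description names a primary tumour. The labels do not say how the Ptch1 gene was altered, which treatment came before the relapse, or the age, sex or strain of the mice. Of the 17016 barcodes deposited, 16933 passed a filter of 500 genes or more and no more than 10% of UMIs (unique molecular identifiers, each 1 counted RNA molecule) from mitochondrial genes. Members were chosen by measured values. A cell was a member when at least 6 of the 10 genes Top2a, Ube2c, Cdk1, Ccnb1, Hmmr, Tpx2, Plk1, Aurkb, Nusap1 and Prc1 had a UMI, and when Atoh1, Zic1, Barhl1 and Neurod1 together had at least 1. This gave 4492 members of the 16933 passing cells, 1922 of 9094 primary and 2570 of 7839 relapsed cells. With 1 library per tumour there was no replicate and no test. Levels are UMIs summed over the cells of a library, as counts per 1000000 UMIs (CPM), with exact Poisson 95% intervals, shares carry exact Clopper-Pearson 95% intervals, and both cover counting error only.

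Granule neurons of the cerebellum come from precursors that divide in response to Sonic hedgehog and express the transcription factor Atoh1. Ptch1 encodes the receptor that holds this pathway off, and its loss leaves the precursors dividing, which can give rise to medulloblastoma. As a cell nears mitosis it transcribes a common set of genes under the MuvB complex with B-Myb and FoxM1, many of them through CCAAT boxes bound by NF-Y and a further element, the cell cycle genes homology region. Cyclin B with Cdk1 drives entry into mitosis. The anaphase promoting complex with Cdc20 then has securin (Pttg1) and cyclin B destroyed, which frees separase to part the sister chromatids.

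The sequences upstream of these genes are shown because the genes of the membership rule are the markers of these phases, and Pttg1 and Oip5 had the largest differences between the libraries, in opposite directions, among the listed genes of mitosis. Each is the 150 bases before the transcript start in RefSeq on GRCm38.p6, a patch release of the assembly that mm10, the build of the files, denotes, written 5′ to 3′ on the gene's strand. Capitals mark TTTGAA or TTCGAA (the homology region) and CCAAT, or the reverse complements TTCAAA and ATTGG. These motifs do not overlap each other in the sequences printed. Ube2c (chr2:164769779-164769928, plus strand), Cdk1 (chr10:69352913-69353062, minus strand) and Top2a (chr11:99024190-99024339, minus strand) belong to the rule. Cdc20 (chr4:118437344-118437493, minus strand) and Oip5 (chr2:119618506-119618655, minus strand) are further mitotic genes, and Pttg1 (chr11:43425982-43426131, minus strand) is securin.
Ube2c: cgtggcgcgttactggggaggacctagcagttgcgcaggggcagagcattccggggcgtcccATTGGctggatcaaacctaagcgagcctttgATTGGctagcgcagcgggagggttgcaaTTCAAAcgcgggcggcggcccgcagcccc
Cdk1: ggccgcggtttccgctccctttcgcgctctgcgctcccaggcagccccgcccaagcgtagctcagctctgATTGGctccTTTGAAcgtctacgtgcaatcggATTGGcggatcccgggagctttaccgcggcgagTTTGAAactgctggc
Top2a: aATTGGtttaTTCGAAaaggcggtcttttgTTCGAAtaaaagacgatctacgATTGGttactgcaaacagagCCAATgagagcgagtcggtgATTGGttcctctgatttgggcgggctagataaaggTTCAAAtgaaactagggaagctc
Cdc20: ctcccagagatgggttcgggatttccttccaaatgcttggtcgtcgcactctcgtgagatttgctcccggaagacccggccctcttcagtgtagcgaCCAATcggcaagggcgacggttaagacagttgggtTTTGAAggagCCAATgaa
Oip5: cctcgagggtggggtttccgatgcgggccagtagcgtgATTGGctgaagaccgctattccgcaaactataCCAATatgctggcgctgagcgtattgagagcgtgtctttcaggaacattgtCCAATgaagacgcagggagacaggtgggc
Pttg1: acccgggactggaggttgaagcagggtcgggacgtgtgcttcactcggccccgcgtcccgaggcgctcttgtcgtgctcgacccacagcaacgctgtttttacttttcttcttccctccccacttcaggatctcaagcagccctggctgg

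Over windows of 300 bases, from 250 before to 50 after the start, a homology region in either spelling was found in 19.2% and a CCAAT box in 37.4% of all 32851 promoters in the table, on either strand. The rule genes had 9 promoters of 8 genes there, with no entry for Tpx2 and Aurkb, and 7 of the 9 held a homology region and 8 a CCAAT box. Among spindle kinesins 11 of 12 promoters held a homology region, against 11 of 18 for late mitosis genes and 6 of 43 for S phase genes. The Oip5 window held 4 CCAAT boxes and a homology region 33 bases after the start, outside the stretch printed. The Pttg1 window held neither motif in these spellings. A match is a description of letters and not a measured binding site.

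The 2 libraries differed in more than the tumour they came from. The primary library held 56332247 and the relapsed 69403567 UMIs, and 93 barcodes occurred in both, 3 of them among members. Members had a median of 8764.5 UMIs and 2954.5 genes in the primary library, against 11347 UMIs and 3311.5 genes for relapsed members, with median mitochondrial shares of 3.00% and 2.88%. Xist, the RNA of the inactive X chromosome, had a UMI in 82.6% of primary and 0.895% of relapsed members, while the Y-linked Eif2s3y had one in 0 of 1922 and in 67.4%. Microglia-like cells, defined as cells with at least 4 of 12 microglia and macrophage markers, and here with at most 1 rule gene (194 and 20 cells), differed from members in the relapsed library. Xist was at 1297 CPM in the primary ones and 984 in the relapsed ones, against 1944 and 7.65 in members, and Eif2s3y was at 24.7 in the relapsed ones, against 103 in members. Differences between animals and between tumour stages cannot be told apart. Markers of other cells moved as well. The summed level of these 12 markers was 235 CPM (228–243) in primary and 28.9 (27.0–30.8) in relapsed members, with all 12 detected in both. The 6 pituitary markers summed to 2.63 CPM (1.92–3.504), with 2 detected, and 1650.01 (1636–1664), with all 6 detected, of which nearly all was growth hormone and prolactin RNA. T and NK cell markers had 10 UMIs and 0. Endothelial markers summed to 4.57 and 5.62 CPM. The part of these cells and of free RNA in the differences given here was not tested, except where values without such members are stated.

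The requirement for a lineage gene was a weak one. In all microglia-like cells, which are expected to lack these genes, Zic1 had a UMI in 45.9% of 290 primary and 31.3% of 32 relapsed cells, at median depths of 6439 and 11333.5 UMIs. The same shares were 44.1% and 31.3% for Barhl1, 24.5% and 25% for Neurod1, and 20.3% and 12.5% for Atoh1. These cells were not limited to cells outside the cycle, and Top2a had a UMI in 24.5% and 28.1% of them. In the 194 and 20 with at most 1 rule gene, Zic1 was at 128 and 49.5 CPM and Barhl1 at 114 and 59.4. By share, members were at 95.8% and 97.5% for Zic1 and 87.7% and 96.2% for Barhl1, above all microglia-like cells. Members had to hold at least 1 UMI over the 4 genes, and microglia-like cells did not. This order therefore follows in part from the rule and is a description. At least 3 of the 4 lineage genes were found in 1470 of 1922 primary and 2355 of 2570 relapsed members.

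By the rule as given, members made up 21.1% of passing primary cells (20.3–21.99) and 32.8% of relapsed ones (31.7–33.8). With every cell thinned at random to 3000 UMIs, the shares were 12.9% of 7918 cells (12.2–13.7) and 13.6% of 7839 (12.8–14.4), with intervals that overlap. Thinning left out 1176 shallower primary cells, 44 of them full-depth members, and 0 relapsed cells. The order of the libraries at equal depth changed with the depth chosen. At 2000 UMIs the share was 6.82% (6.31–7.36) for primary and 6.06% (5.54–6.61) for relapsed cells, and at 5000 UMIs, in the 5078 and 6169 cells deep enough, it was 25.1% (23.9–26.3) and 28.3% (27.2–29.5). Asking for at least 4 genes at 3000 UMIs gave 22.2% (21.3–23.1) and 27.3% (26.3–28.3). At 3000 UMIs exactly 4 of the 10 genes were found in 7.35% (6.76–7.96) of relapsed and 5.18% (4.69–5.71) of primary lineage-positive cells, while 9 were found in 0.885% (0.685–1.12) and 1.58% (1.31–1.90).

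**Figure D1:**
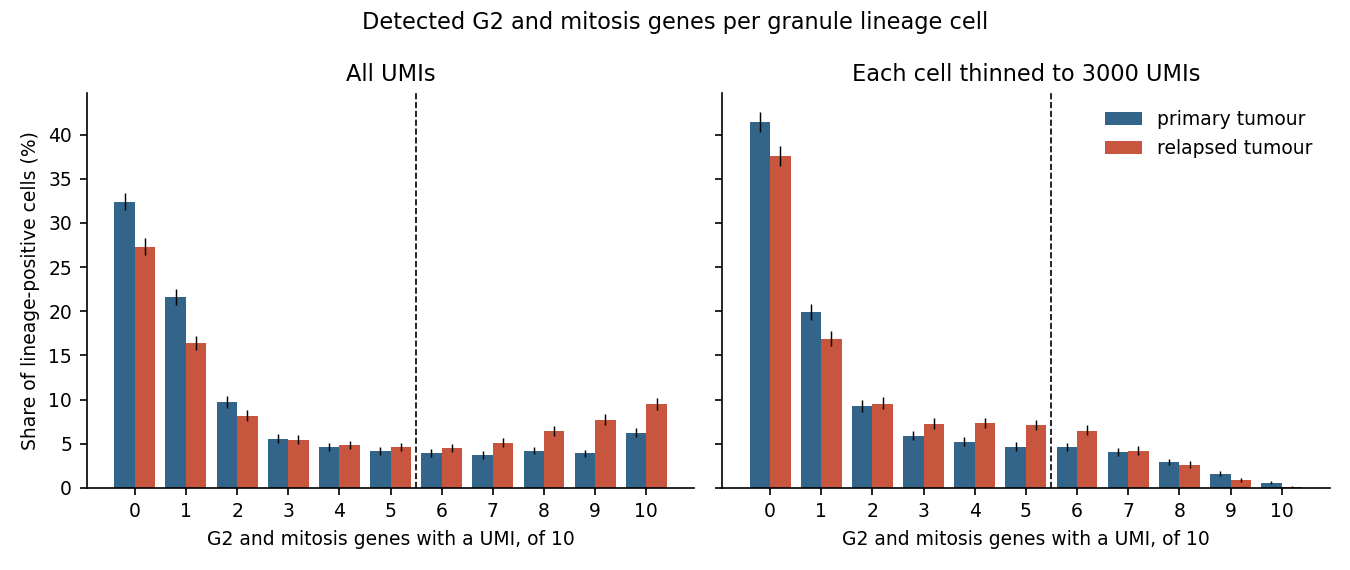
Share of lineage-positive cells (%, with exact 95% intervals) by how many of the 10 G2 and mitosis genes had a UMI, with all UMIs on the left and each cell thinned to 3000 UMIs on the right, for the primary (blue) and relapsed (red) library. The dashed line marks the threshold of 6 genes. At full depth 9.502% of relapsed and 6.25% of primary lineage-positive cells had all 10 genes, and at 3000 UMIs 0.0938% and 0.578% did.

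In the primary library 365 cells had 5 of the genes, at a median of 6559 UMIs, and 343 had 6, at 7000 UMIs. In the relapsed library these were 357 cells at 8097 UMIs and 350 at 8561.5. Plk1, the kinase that triggers mitotic entry, had a UMI in 16.7% of primary cells with 5 genes and 31.5% of those with 6, and in 18.5% and 27.1% of the relapsed ones.

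The members were chosen by these 10 genes, whose values are a description. Their level in CPM was lower in relapsed members for all 10. Relapsed members were deeper, and in UMIs per cell the order was mixed: Top2a, Ube2c, Hmmr and Plk1 were lower in relapsed members, and the other 6 were higher, such as Cdk1 with 5.38 and 5.84 and Tpx2 with 1.99 and 2.38. Top2a, the topoisomerase that untangles chromatids, was at 606 CPM (594–618) in primary and 417 CPM (410.3–424) in relapsed members, with 5.52 and 5.28 UMIs per cell. Ube2c, the E2 enzyme of the anaphase promoting complex, was at 1278 CPM (1261–1295) and 893 CPM (883–904), with 11.6 and 11.3 UMIs per cell. Cdk1, the kinase of mitotic entry, was at 590.3 CPM (579–602) and 461 CPM (454–468), and its partner Ccnb1 at 521 CPM (509.9–531) and 409 CPM (402–416). The difference was largest for the spindle protein gene Hmmr, from 175 to 100 CPM, a log2 ratio of −0.80, and smallest for Tpx2, which nucleates spindle microtubules, from 219 to 188, a log2 ratio of −0.22. Here and below, log2 ratios are of relapsed over primary members on the scale of CPM + 1. Plk1 was at 176 and 113, Aurkb, the kinase of the chromosomal passenger complex, at 209.9 and 174, Nusap1, which bundles spindle fibres, at 352 and 265, and Prc1, which crosslinks the midzone, at 246 and 189. At 3000 UMIs Top2a was found in 79.6% (77.7–81.4) of 1878 primary and 68.4% (66.6–70.2) of 2570 relapsed members, and Hmmr in 37.8% (35.6–40.0) and 25.8% (24.2–27.6). These members were chosen at full depth and then thinned, to a median of 6 primary and 5 relapsed rule genes. Relapsed members were deeper when chosen, and the part of this in their lower shares was not tested.

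Genes of late mitosis and of S phase were both found among members. At 3000 UMIs a primary member had a median of 9 and a relapsed one of 8 of 21 late mitosis genes, a list that holds Cdc20, Cenpa and Kif20a. These members too were chosen at full depth and then thinned. The median number of 10 S phase genes was 2 in both, and at least 3 of them were found in 41.0% (38.8–43.3) of primary and 40.1% (38.2–42.0) of relapsed members, with overlapping intervals. Without thinning, and so at unequal depth, at least 6 S phase genes were found in 35.8% (33.7–38.0) and 50.5% (48.5–52.4), but at 3000 UMIs the order was the opposite, at 5.70% (4.69–6.84) and 3.89% (3.18–4.71). Over members of a library, cells with more late mitosis genes had fewer S phase genes, with Pearson's r of −0.44 over 1878 primary and −0.38 over 2570 relapsed cells, all of 1 library and thinned to 1 depth. For comparison, lineage-positive cells outside the members with at least 6 of the 10 S phase genes, called S phase cells below, made up 14.0% (13.3–14.7) and 15.2% (14.4–16.0) of passing cells. Those shares are at full and so unequal depth. Cells with at most 1 rule gene and outside S phase, called low-cycle cells, numbered 4240 and 2925.

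Relapsed and primary members were alike for most genes. Of 7667 genes with a mean of at least 10 CPM over the 2 libraries, 434 differed at least 2-fold, 5.66% of those measured, with 210 higher (2.74%) and 224 lower (2.92%) in relapsed members. With the median ratio of all genes, −0.07 on the log2 scale, set to no change, 432 differed, of which 254 were higher. Over the 25 gene lists 22 of 405 distinct genes measured passed 2-fold, a share near that of all genes.

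**Figure D2:**
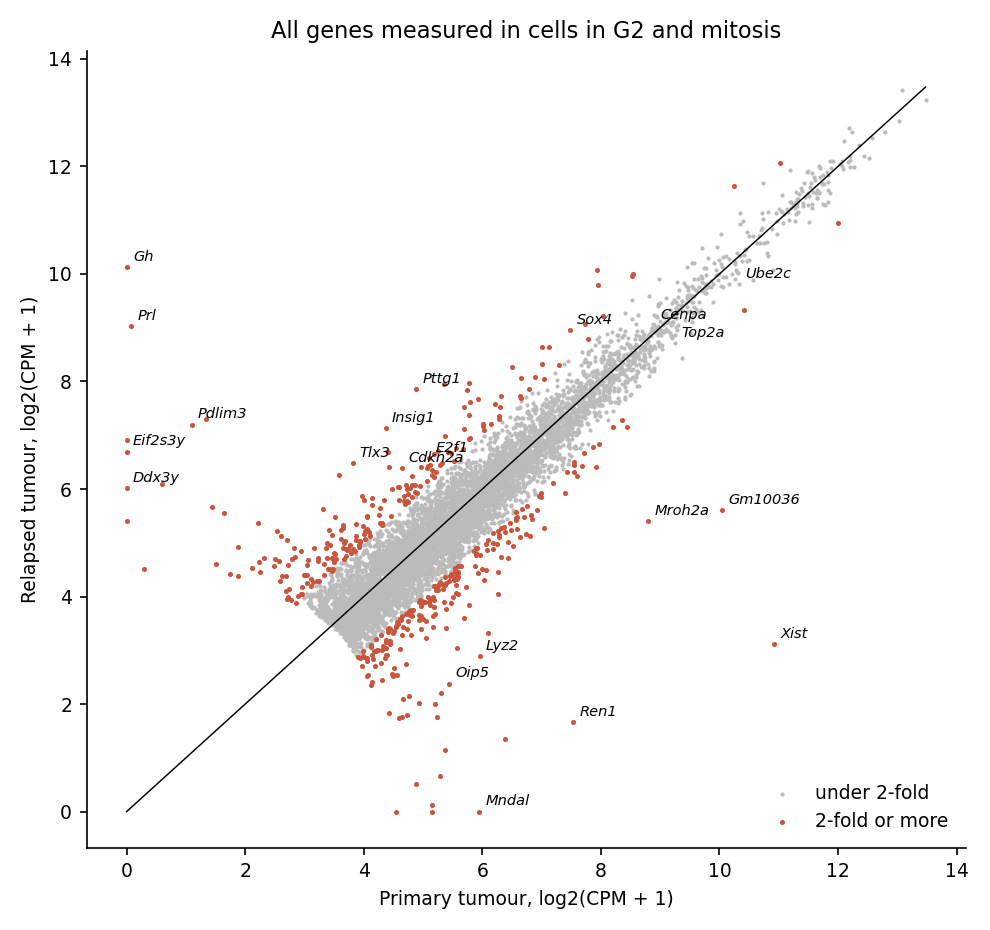
Each point is 1 of 7667 genes in granule lineage cells in G2 and mitosis, with its level in the primary library on the x axis and in the relapsed library on the y axis, both as log2(CPM + 1), and 434 genes at 2-fold or more in red. Pttg1 stands above the line among the mitotic genes, Oip5 below it, and the pituitary hormones Gh and Prl and the X-linked Xist lie farthest from it.

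Securin had the largest difference in the relapsed direction among the listed genes of mitosis. Pttg1 encodes the inhibitor of separase, made before mitosis and destroyed at anaphase. Its level was 28.5 CPM (26.0–31.1) in primary and 232 CPM (227–237) in relapsed members, a log2 ratio of 2.98. As for every gene here, a difference between animals and one between tumour stages cannot be told apart. These levels rest on 499 UMIs over 1922 and 7551 over 2570 cells, or 0.260 and 2.94 per cell. A UMI of Pttg1 was found in 21.2% of primary and 80.4% of relapsed members, and at 3000 UMIs in 7.03% (5.91–8.28) and 44.2% (42.3–46.1). The difference in level was smaller outside the members, with a log2 ratio of 1.19 in S phase cells (30.9 and 71.6 CPM) and 0.79 in low-cycle cells (33.6 and 58.9 CPM).

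The course of Pttg1 over the number of rule genes found differed between the libraries as well. This number depends on the depth of a cell too and is not a measured position in the cycle. In relapsed lineage-positive cells it was at 46.4 CPM where none of the 10 rule genes was found, 107 with 2, 200.1 with 4, 167 with 6 and 311 with all 10. In the primary library the values at the same steps were 32.6, 32.1, 33.4, 34.0 and 28.3 CPM. The relapsed course was thus upward but uneven, and the primary one flat. Microglia-like cells with at most 1 rule gene had 41.0 CPM of Pttg1 (31.0–53.1, from 57 UMIs) in the primary and 44.5 (20.4–84.5, from 9 UMIs) in the relapsed library. The primary level in members was not above that of these cells, and the part of free RNA in it was not tested. Cdc20, which brings securin to the anaphase promoting complex, went from 16.3 CPM with none of the rule genes to 734 with all 10 in the primary library, and from 11.9 to 479 in the relapsed one, where it was uneven too, at 189 with 4 and 188 with 8. Ccna2, the cyclin of S phase and G2, went from 10.9 to 629 and from 14.1 to 465. Espl1, which encodes separase, was low in both, at 18.0 and 11.6 CPM in members.

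**Figure D3:**
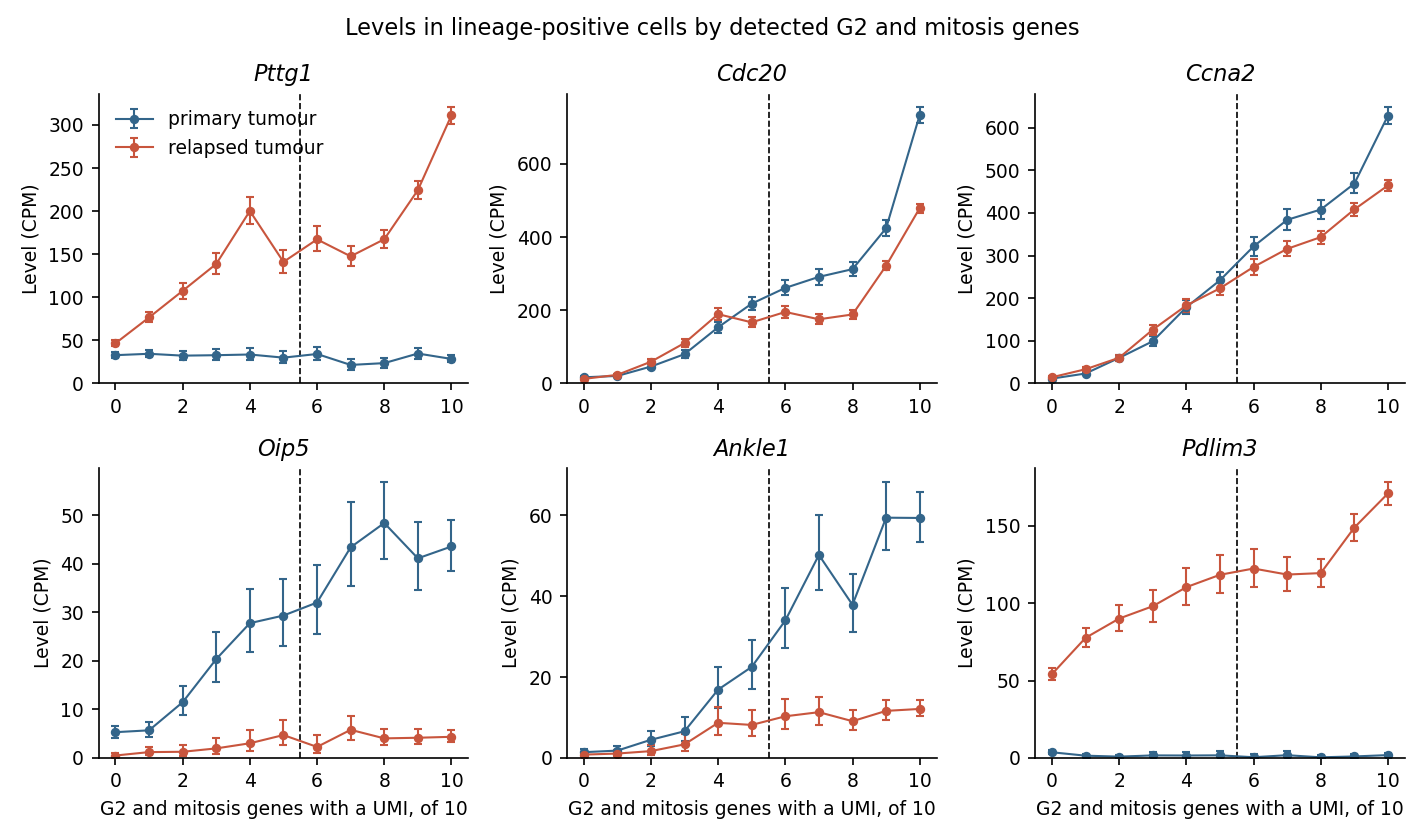
Level of 6 genes (CPM, with exact Poisson 95% intervals) in lineage-positive cells of the primary (blue) and relapsed (red) library, by the number of the 10 rule genes with a UMI on the x axis. The dashed line marks the threshold for members. Pttg1 is flat between 21.3 and 34.5 CPM in the primary library and goes from 46.4 to 311 CPM in the relapsed one. Cdc20 and Ccna2 are highest with all 10 genes in both. From none to all 10 genes, Oip5 goes from 5.29 to 43.6 CPM in the primary and from 0.478 to 4.33 in the relapsed library. Ankle1 goes from 1.40 to 59.4 and from 0.797 to 12.1. Pdlim3 is near 0 in the primary.

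Oip5 and Ankle1 showed the opposite order. Oip5 encodes a subunit of the Mis18 complex, which prepares centromeres to receive Cenpa. It was at 42.3 CPM (39.3–45.4) in primary and 4.21 CPM (3.53–4.98) in relapsed members, from 740 and 137 UMIs, a log2 ratio of −3.05. The same order held in S phase cells, at 21.6 and 2.70 CPM, and in low-cycle cells, at 4.14 and 0.571. Ankle1, a nuclease that cuts chromatin bridges, was at 50.8 CPM (47.5–54.2) and 11.2 CPM (10.1–12.4), a log2 ratio of −2.09. It went from 1.40 CPM with none of the rule genes to 59.4 with all 10 in the primary library, and from 0.797 to 12.1 in the relapsed one. Cenpa, the centromeric histone that the Mis18 complex serves, differed little, at 477 and 527 CPM. By their RefSeq starts Oip5 and Nusap1 overlap at their 5′ ends on opposite strands of chromosome 2, and whether counting used strand is not known here, so reads of the overlap could be shared.

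Most of the machinery of mitosis was close in the 2 libraries. Among 18 genes of mitotic cyclins and Cdk1 control the median log2 ratio was −0.04, which turned to 0.03 with the median of all genes set to no change, and 1 gene passed 2-fold. This was Chek1, the checkpoint kinase, at 23.5 and 10.9 CPM (log2 ratio −1.04, but −0.97 with the median of all genes set to no change and −0.84 with 5 CPM added in place of 1). Ccnb2 was at 250.2 and 228, Ccnf at 61.8 and 35.9, and Mastl, the kinase that shuts off the phosphatase opposing Cdk1, at 11.5 and 17.3. The 13 mitotic kinases had a median of −0.27 and 1 gene past 2-fold, Cit, the kinase of the midbody, at 93.5 and 42.0 (log2 ratio −1.14). Aurka was at 191 and 155, Bora, which activates Plk1 with Aurka, at 46.1 and 23.7, and Bub1 at 40.3 and 47.2.

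The anaphase promoting complex and its substrates, 19 genes, had a median of −0.24, and Pttg1 alone passed 2-fold. Anapc11, the catalytic RING subunit, was at 293 and 173 CPM, and Fbxo5, the inhibitor that is removed at mitotic entry, at 191 and 127. The spindle checkpoint, which holds Cdc20 back until kinetochores are attached, had none past 2-fold and a median of −0.18 over 11 of 12 genes. Leaving aside the setting that kept 182 and 31 cells (−0.25), the median lay between −0.23 and 0.03 under the others. Genes of this list went both ways, with Mad2l1 at 149 and 202 and Zw10 at 24.7 and 15.2. Of 34 centromere and kinetochore genes (median −0.13) Oip5 alone passed 2-fold. The motor Cenpe was at 187 and 110.0, and Spc25 of the Ndc80 complex at 391 and 239. The 6 genes of the passenger complex and shugoshins had a median of −0.14, which turned to 0.01 at 3000 UMIs, with Birc5 at 496 and 427.

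Kinesins of the spindle were lower in relapsed members without exception, at a median of −0.36 over 12 measured genes, none of them past 2-fold. The list keeps this direction with the median of all genes set to no change (−0.29) and at 3000 UMIs (−0.38). Kif18b, which shortens astral microtubules, was at 29.1 and 15.2 CPM, Kif20a, needed for cytokinesis, at 70.0 and 51.0, and Kif11, which slides spindle poles apart, at 72.3 and 61.2. Of 27 spindle assembly genes (median −0.27) 4 were higher and none passed 2-fold. Dlgap5 was at 68.7 and 43.8 and Spag5 at 52.0 and 34.0. Condensins and chromosome structure genes (20, median −0.12) had none past 2-fold, with Smc4 at 475 and 333 and Mki67, the marker of cycling cells, at 252 and 162. Cytokinesis genes (15, median −0.18) had Cit alone past 2-fold, with Anln, the scaffold of the contractile ring, at 36.4 and 19.0 and Racgap1 at 267 and 307. Late mitosis genes, which overlap these lists, had a median of −0.21 over 21 genes and none past 2-fold.

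**Figure D4:**
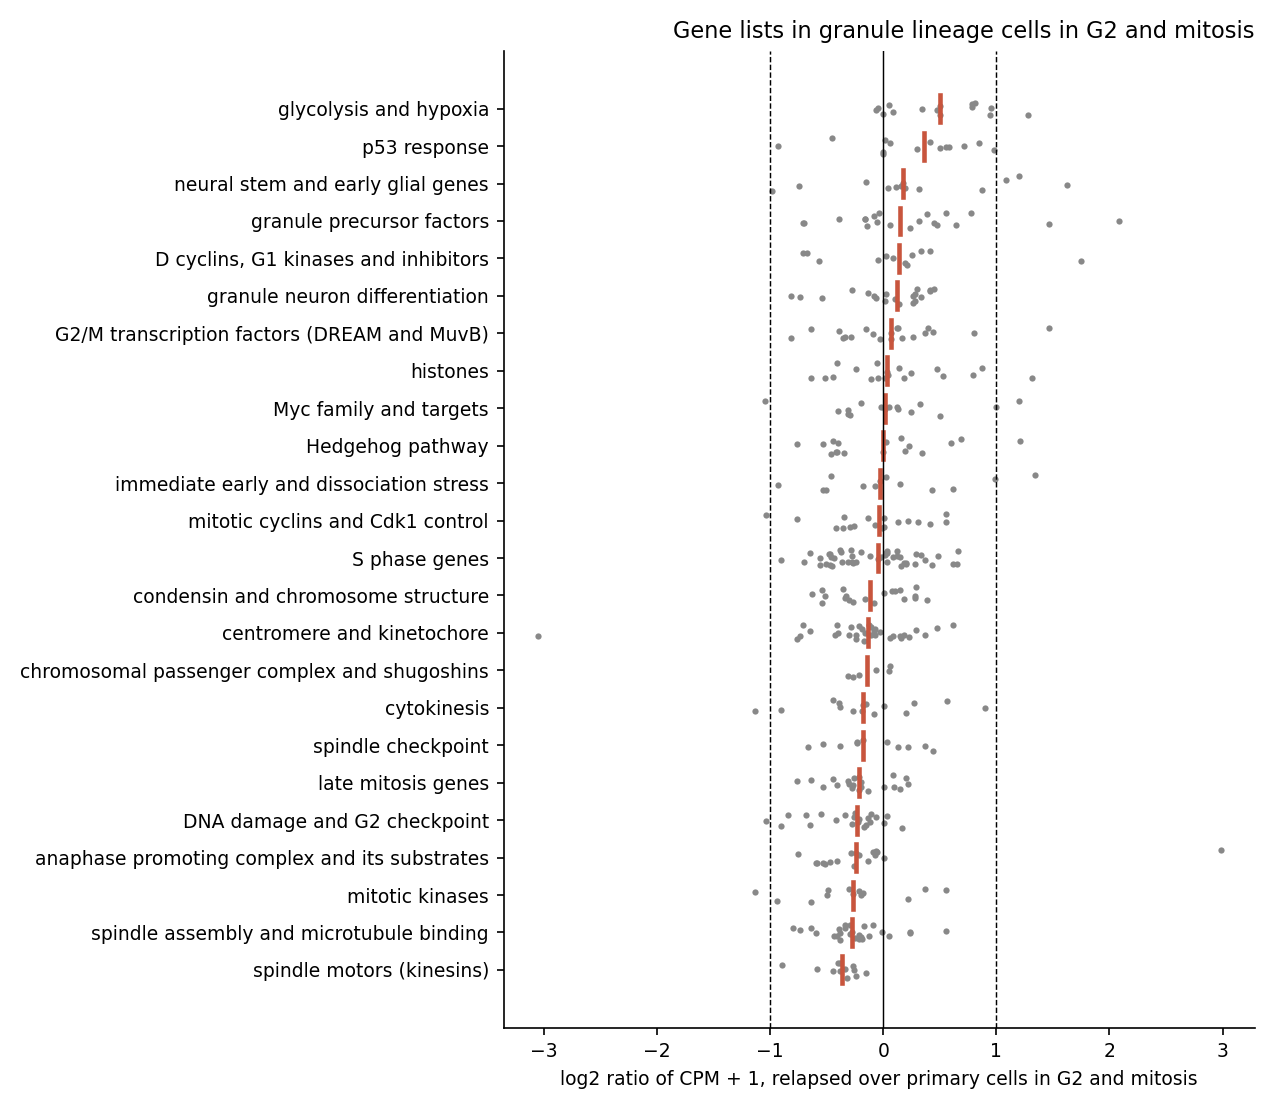
Log2 ratio of CPM + 1 in relapsed over primary granule lineage cells in G2 and mitosis for each measured gene (grey) of 24 lists, with the median of each list as a red bar and dashed lines at 2-fold. Spindle kinesins have the lowest median (−0.36) and glycolysis and hypoxia genes the highest (0.50), and the points farthest out are Pttg1 and Oip5.

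Regulators of the programme differed more by single genes than as a group. The transcription factors of G2 and mitosis had a median of 0.07 over 20 of 23 genes, between −0.03 and 0.35 under the other settings. E2f1, which drives entry into S phase, alone passed 2-fold, at 33.4 CPM (30.8–36.2) in primary and 94.0 CPM (90.7–97.4) in relapsed members. It was higher in relapsed S phase cells (49.1 and 154) and low-cycle cells (25.9 and 67.6) too. Foxm1 was at 51.9 and 70.6, Mybl2, which encodes B-Myb, at 33.9 and 44.9, and the NF-Y subunits Nfya at 21.4 and 11.8 and Nfyb at 96.0 and 61.2. Cdkn2a, which holds the p16 and p19 tumour suppressors, was at 23.9 CPM (21.7–26.3) and 82.9 CPM (79.8–86.1), a log2 ratio of 1.75, with 11.5 and 55.9 in low-cycle cells. It was the gene past 2-fold among 12 D cyclins, G1 kinases and inhibitors (median 0.14). Cdkn2d, the p19 inhibitor of Cdk4, went the other way, at 224 and 137, and Ccnd2 was at 1451 and 1663.

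S phase genes had a median of −0.05 over 47 genes, which turned to 0.02 with the median of all genes set to no change, and none passed 2-fold. Chaf1b, which places histones on new DNA, was at 48.1 and 76.7 CPM. Histones and chromatin proteins had a median of 0.03 over 19 of 23 genes, which turned to −0.02 at 3000 UMIs. H1fx, a linker histone, passed 2-fold at 127 and 319, and Hmgn2 was at 1303 and 2259. DNA damage and G2 checkpoint genes had a median of −0.24 over 22 of 26 genes, with Chek1 past 2-fold.

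The 4 lineage genes helped to choose the members, so their levels are a description. Atoh1 was at 141 CPM (136–147) in primary and 208 CPM (203–213) in relapsed members. Barhl1, which Atoh1 controls in granule precursors, was at 365 CPM (356–374) and 569 CPM (561–578). Neurod1, a gene of granule neuron differentiation, was at 155 CPM (149.5–161) and 213 CPM (208–218). Zic1, a zinc finger factor of the lineage, was at 535 CPM (524–546) and 484 CPM (476–492). Atoh1, Barhl1 and Neurod1 were thus higher and Zic1 lower in relapsed members. Against S phase cells of the same library, Neurod1 was higher in members, at 155 and 110 CPM (primary) and 213 and 150 (relapsed). Zic1 was higher in members too, and Atoh1 and Barhl1 were lower. At full and so unequal depth, Atoh1 and Neurod1 were found in the same cell in 36.7% (34.6–38.9) of primary and 62.7% (60.8–64.6) of relapsed members. At 3000 UMIs they were found together in 11.02% (9.64–12.5) and 16.6% (15.2–18.1). At that depth Atoh1 was found in 31.9% of primary and 43.7% of relapsed members, and Neurod1 in 34.7% (32.5–36.9) and 40.9% (38.9–42.8). Barhl1 was found in 60.0% and 76.6%, and Zic1 in 79.1% and 74.4%. The share of members with both Atoh1 and Neurod1 follows in part from the shares with each, and a link between these 2 genes was not tested.

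Compared with low-cycle cells of the same library, members held less RNA of neuronal differentiation and about as much of Atoh1. Members and low-cycle cells were separated by cell cycle genes, so these values are a description. Low-cycle cells were also shallower, at medians of 4434 primary and 5397 relapsed UMIs, against 8764.5 and 11347 in members. Late mitosis genes were at least 2-fold higher in members for 21 of 21, with median log2 ratios of 4.28 and 4.09, where 5.64% of 7991 genes measured in primary and 5.12% of 7787 in relapsed cells were. Differentiation genes had medians of −0.89 (primary) and −0.73 (relapsed), with 9 and 7 of 24 at least 2-fold lower, against 5.06% and 4.51% of all genes. Stmn2, a tubulin-binding protein of growing axons, was at 429.8 CPM in primary members and 1373 in low-cycle cells, and at 405 and 976 in the relapsed library. Dcx, a microtubule protein of migrating neurons, was at 74.98 and 184, and at 80.6 and 166. Neurod1 was at 155 and 424, and at 213 and 475, while Atoh1 was at 141 and 149, and at 208 and 225. Low-cycle cells held 371 (8.75%) and 260 (8.89%) cells with markers of other types, and without them the differentiation medians were −0.97 and −0.82.

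Between relapsed and primary members, differentiation genes had a median of 0.12 over 20 of 32 genes and none past 2-fold, with Cntn2, an adhesion molecule of postmitotic granule cells, at 40.9 and 22.8 CPM and Tubb3 at 546 and 550.3. Granule precursor factors had a median of 0.15 over 20 of 26 genes, with 2 higher past 2-fold. These were Zic2, at 4.63 CPM (3.67–5.75) and 22.9 CPM (21.2–24.6), and Sox4, a factor of early neurons, at 178 CPM (172–185) and 496 CPM (488–503). Sox4 was higher in relapsed low-cycle cells too, at 264 and 679. Nhlh1, a helix-loop-helix factor of newborn neurons, went the other way, at 48.0 and 29.0.

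Targets of the Hedgehog pathway were present in members of both libraries. Gli1, a target and effector of the pathway, was at 52.5 CPM in primary members and 21.1 in low-cycle cells, and at 39.2 and 14.4 in the relapsed library. Ccnd1, the D cyclin induced by the pathway, was at 475 and 233, and at 482 and 272. Ptch1 was at 163 in primary and 162 in relapsed members. It is the altered gene, and a count of its RNA does not show which part is missing. Mycn was at 309.8 and 235, Gli2 at 29.2 and 16.8, and Sfrp1, an inhibitor of Wnt signals that Hedgehog induces, at 697 and 1125. Of 17 of 23 genes measured Gas1, a co-receptor for the ligand, alone passed 2-fold, at 63.2 CPM (59.5–67.1) and 147 CPM (143–151). The median of the list was −0.01, but −0.33 at 3000 UMIs and 0.06 with the median of all genes set to no change.

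**Figure D5:**
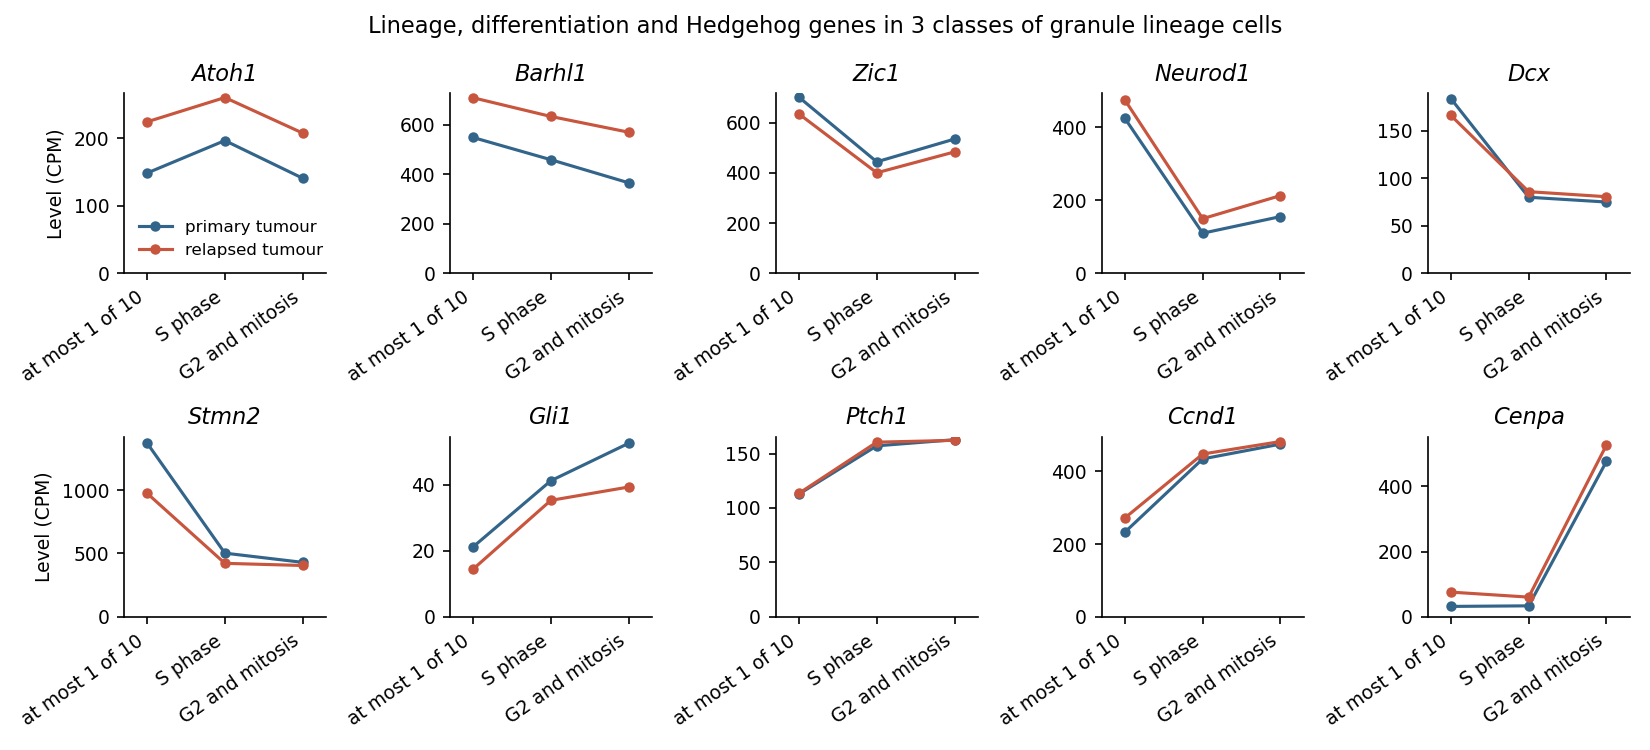
Level (CPM) of 10 genes in low-cycle cells (at most 1 of the 10 rule genes), S phase cells and cells in G2 and mitosis of the granule lineage, for the primary (blue) and relapsed (red) library, with lines that join the classes of 1 library. Neurod1, Dcx and Stmn2 are lower in both cycling classes, Gli1, Ptch1 and Ccnd1 are higher, and Cenpa is high in G2 and mitosis alone.

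Metabolic and stress genes were measured in the same members. Glycolysis and hypoxia genes had the highest median of the lists, 0.50 over 15 of 29 genes, with 12 of the 15 higher in relapsed members, and lay between 0.39 and 0.67 under the other settings, leaving aside the one that kept 182 and 31 cells. Ddit4, an inhibitor of mTOR that hypoxia induces, passed 2-fold, at 25.4 and 63.2 CPM. Gapdh was at 1709.8 and 3319, Eno1 at 166 and 319, Aldoa at 83.3 and 144, and Pkm, the pyruvate kinase, at 698 and 667. Gapdh was higher in relapsed low-cycle cells as well, at 1287 and 2696. The p53 response list had a median of 0.36 over 14 of 20 genes, which was 0.19 at 3000 UMIs and 0.04 at a mean of at least 50 CPM, and none past 2-fold, with Cdkn1a, the inhibitor of cyclin kinases, at 61.6 and 82.2 and Trp53 itself at 235 and 171. Immediate early and dissociation stress genes had a median of −0.03 over 13 of 28 genes, which turned to 0.04 with the median of all genes set to no change, with Jund past 2-fold at 211 and 538. The Myc family and its targets had a median of 0.02 over 17 of 18 genes, with Myc (15.6 and 37.1) and Mxi1 (45.1 and 91.2) higher and Nop56, of the box C/D nucleolar particle, lower (294 and 142, a log2 ratio of −1.05, and −0.98 with the median of all genes set to no change).

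Neural stem and early glial genes had a median of 0.18 over 13 of 21 genes, between −0.05 and 0.26 under the other settings, with 3 past 2-fold. Olig2, a factor of glial precursors and of some medulloblastoma stem cells, was at 7.31 CPM (6.10–8.69) and 24.7 CPM (23.0–26.4), from 128 and 803 UMIs. Nes, an intermediate filament of stem cells, was at 14.3 and 31.4, a log2 ratio of 1.09, but 0.75 at 3000 UMIs. Fabp7, a lipid-binding protein of radial glia, was at 23.2 and 54.6, a log2 ratio of 1.20, but 0.68 at 3000 UMIs, 0.47 without the 82 relapsed members with at least 3 pituitary markers and −0.32 among members with at least 3 of the 4 lineage genes. Sox2 was below 10 CPM in both, at 9.19 and 5.78. Markers of oligodendrocyte precursors summed to 503 CPM in primary and 819 in relapsed members, of which C1ql1 made up 392 and 599, and astrocyte markers to 317 and 328. Their part in these 3 genes was not tested.

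The largest differences of all lay mostly outside the cell cycle lists. Of the 12 largest in the relapsed direction, Gh (growth hormone) had 0 UMIs in primary and 1118 CPM in relapsed members, and Prl (prolactin) 1 UMI and 521 CPM. The top 1% of relapsed members held 93.7% of their Gh and 82.8% of their Prl UMIs. Eif2s3y and Ddx3y, both Y-linked, had 0 UMIs and 103 and 63.6 CPM. Prm1, a protamine of sperm, had 0 UMIs and 119 CPM, with 48.5% of the relapsed UMIs in the top 1% of members. The others were Pdlim3 (1.14 and 146), an actin-binding protein, A930019D19Rik, Gm5900, Pttg1, Insig1 (19.7 and 139), which retains the sterol sensor in the endoplasmic reticulum, Sowaha and Tlx3 (13.2 and 88.7), a homeobox factor of neurons. Pdlim3 went up with the number of rule genes found in the relapsed library, from 54.1 CPM with none of them to 171 with all 10.

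Of the 12 largest in the primary direction, Xist was at 1944 and 7.65 CPM. Ren1, the renin gene, was at 184 and 2.18, and Mndal, of the interferon-inducible Ifi200 family, at 60.6 with 0 UMIs in relapsed members. Both belong to families with near-identical copies, so their counts are uncertain. Hbb-bs and Lyz2, RNAs of red cells and myeloid cells, were at 82.7 and 1.54 and at 61.0 and 6.45. Hbb-bs had a UMI in 4.79% and Lyz2 in 13.4% of primary members. The top 1% of primary members held 95.03% of their Hbb-bs and 75.2% of their Lyz2 UMIs, so these levels rest on few cells. Gm10036, a predicted gene model that may share reads with a copy elsewhere, as may Gm5900, was at 1053 and 47.6, Mroh2a at 445 and 41.2, and Sox18 at 67.7 and 9.03. Lamtor3, Ankle1, Ramp2 and Zmat5 followed, the first at 76.1 and 15.4. Ren1, Mndal, Gm10036, Mroh2a, Sox18 and Lamtor3 had the same order in S phase and low-cycle cells, as Insig1, Tlx3, Sowaha, Gm5900 and A930019D19Rik did in the other direction.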

How the data were processed

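Per the labels' protocols, single cells were partitioned on a Chromium Controller. The authors deposited a matrix of whole-number UMI counts per gene and barcode for each library. STAR, Cell Ranger and Seurat, with build mm10, appear in the submitters' processing notes, while filters and the use of strand were not given in the sources read. Cell classes were built here. The sorted astrocyte tables were not used here.

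Counts of members were summed per library. Log2 ratios are of CPM + 1, genes were measured at a mean of at least 10 CPM, and 2-fold is a rule of size with no test. The members and gene lists were chosen with earlier results of these data known. Named genes are the rule genes, up to 4 per list with the largest ratio, those with a stated role, and the 12 largest differences each way at 50 CPM or more. Thinning drew UMIs without replacement. Shares of passing cells and ratios at 3000 UMIs use cells that met the rule again there (1024 primary and 1066 relapsed). Shares of members in which a gene was found at 3000 UMIs use members chosen at full depth. Doublets were not removed: Scrublet (scanpy 1.11.5) marked 0 cells in both libraries, so its calls had not worked. As an alternative, the 6% of cells with the highest scores, which held 9.99% of primary and 10.97% of relapsed members, were left out. Whether these scores mark doublets was not tested, so this alternative cannot show that doublets have no part. The scripts were tested on simulated data (numpy 2.4.6, scipy 1.17.1).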

Additional observations from a re-analysis of the deposited data

How the results depend on the processing

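The order of the libraries in the share of members at full depth, relapsed above primary, held under each rule for which both shares are given here. With at least 5 of the genes the shares were 25.1% and 37.3%, with at least 7 17.4% and 28.3%, with at most 5% mitochondrial UMIs 23.4% and 34.6%, and without the cells of highest doublet score 20.2% and 31.0%. With at least 3 lineage genes they were 16.2% and 30.0%. Leaving out cells with 4 or more markers of a non-neuronal class kept 1730 primary and 2126 relapsed members, and the relapsed share was 30.7%. These 2 alternatives and the one on pituitary markers were chosen after seeing the data. At equal depth the order depended on the depth chosen. The thinned shares were 6.82% and 6.06% at 2000 UMIs, 25.1% and 28.3% at 5000, and 22.2% and 27.3% with at least 4 genes at 3000.

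The 434 genes past 2-fold became 1084 of 18107 with no filter on low values and 127 of 2985 at a mean of at least 50 CPM, and the 22 listed genes became 37 and 12. Leaving out members with 2 or more UMIs of a non-neuronal class kept 182 primary and 31 relapsed cells, where 1477 genes and 71 listed genes passed, too few cells for a reading. Of the 434, 347 passed in the same direction among 565 with members found and summed at 3000 UMIs, and 388 among 432 with the median ratio set to no change. At 3000 UMIs Fabp7 (0.68), Nes (0.75) and Kpna2 (−0.98) no longer passed, while Bora, Spdl1, Anln, Nfya, Tfdp2, Etv1, Gapdh, Eno1 and Ier2 did. With the median set, Chek1 (−0.97) and Nop56 (−0.98) no longer passed, while Phlda3, Gapdh, Eno1 and Ier2 did. With 5 CPM added, Chek1 (−0.84), Nes (0.92) and Mxi1 (0.94) did not pass. Of the named genes Fabp7 alone reversed, at −0.32 with at least 3 lineage genes. The log2 ratio of Pttg1 lay between 2.82 and 3.74 over all settings, and was 2.98 without members with pituitary markers and 3.01 without those with 4 or more markers of a non-neuronal class. No paired analysis was possible because each group is 1 library. The depth of a cell limits how many of the 10 genes can be found in it.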

Other observations

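Outside the fixed lists, the genes that stood highest in members over low-cycle cells of the same library were chosen by the smaller of the 2 libraries' log2 ratios. Cdca2, which brings a phosphatase to chromatin at mitotic exit, was at 136 CPM in primary members and 2.51 in low-cycle cells, and at 74.2 and 1.26 in the relapsed library. Kpna2, an importin that carries spindle factors, was at 172 and 9.51, and at 78.8 and 3.77, and differed between relapsed and primary members by a log2 ratio of −1.11, or −0.98 at 3000 UMIs. Shcbp1, a protein of the midbody, was at 99.6 and 149.8 in members and Cdca3 at 386 and 467. The alpha tubulin gene Tuba1c was at 160.1 and 142, against 8.08 and 4.91 in low-cycle cells. Tk1, the thymidine kinase, was at 131 and 142, against 10.5 and 15.6, and Dbf4, the activator of Cdc7, at 102 and 122, against 8.82 and 15.1.

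A further 27 primary and 2 relapsed cells had at least 6 of the 10 rule genes but no UMI of a lineage gene. They are not members and were not described.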
